A study of Mus musculus with 6 samples.

Results

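The genes of cholesterol and fatty acid synthesis were followed in colonies grown from mouse bone marrow with and without Psip1, the gene of the chromatin reader LEDGF, by which MLL complexes are anchored to their target genes. They are 36 genes chosen by symbol, of 46983 genes listed: 18 enzymes of sterol synthesis, 5 genes of the SREBP control circuit, 9 genes of sterol transport, storage and efflux with the LXR receptors, and 4 enzymes of fatty acid synthesis. All 36 were matched to an identifier, and all 36 passed the filter on low counts that left 12292 genes for testing. Polyadenylated RNA was sequenced from lineage-depleted marrow cells of C57BL/6 mice, aged 8 to 11 weeks per the labels, which had formed colonies for 6 to 7 days in a semisolid medium with stem cell factor and the interleukins IL-6 and IL-3. The 3 WT samples are labelled wild type, and the series design gives their mice as Psip1 Fl/Fl, a floxed allele. The 3 KO samples are labelled Psip1-KO, and the design gives their allele as Vav, the name of a promoter active in blood cells. The labels do not say whether the floxed controls carried a recombinase, nor whether each sample of a group came from its own mouse. The sex-linked reads given below show more than 1 animal in each group, but the libraries of the same sex may share one, so part of the spread behind each p-value may be technical. The libraries are named WT 1 to WT 3 and KO 1 to KO 3 after their replicate numbers.

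Cells make cholesterol from acetyl-CoA through mevalonate, squalene and lanosterol. SREBP transcription factors switch on nearly all of these enzymes: SCAP carries SREBP to the Golgi for cleavage when sterols are low, and INSIG proteins hold SCAP back in the endoplasmic reticulum when sterols are high. When sterols are in excess, oxysterols activate the LXR receptors, which raise the efflux transporters ABCA1 and ABCG1, and macrophages, which take up lipid from dead cells, are a classic site of this response.

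Depth limits 1 library. WT 1 and WT 2 and the 3 KO libraries, called the deep libraries below, held 7056614 to 15569088 reads on genes, while WT 3 held 27909. Levels are given in CPM, the normalised read count after TMM scaling. A single read in WT 3 was worth 29.9 CPM, and where it had 0 reads the level could be up to 89.6 CPM (3 reads, by counting error alone), so that library is given in reads. KO 2 took 15.7% of its gene reads from mitochondrial genes, against 1.26% to 1.84% in the other deep libraries and 9.52% in WT 3. In KO 2 39.9% of reads fell on no gene, against 25.6% to 28.6% in the other deep libraries and 47.8% in WT 3. Psip1 stood at 89.3 and 70 CPM in WT 1 and WT 2, with 3 reads in WT 3, and at 14.8, 17.6 and 16.3 CPM in KO 1, KO 2 and KO 3, so the KO libraries lay below the WT libraries. The edgeR quasi-likelihood test gave Psip1 a log2 fold change of -2.32 (SE 0.32) and an adjusted p = 0.0599. The call on Psip1 changes with the fit: its adjusted p by edgeR was 0.00403 without the low-count filter, 0.048 with the replicate block and 0.0314 with sex as a term, and by DESeq2 without WT 3 it was 1.02e-07. It ran up to 1 in the other alternatives, and the log2 fold change of Psip1 stayed between -2.45 and -2.07. Reads of Xist marked WT 2 and KO 1 as female, and Eif2s3y, a Y-linked gene, was found in the other 4, so each genotype held both sexes.

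None of the 36 genes passed the threshold, an adjusted p of 0.05 by edgeR over all 12292 genes, where the share of all genes called was 0%. Each member had an adjusted p = 1. At an unadjusted p under 0.05 the count was 0 of 36 as well, against 0.212% of all genes lower and 1.24% higher in KO. Without WT 1 that count was 6: Pmvk and Acat2 lower, and Npc1, Soat1, Abca1 and Abcg1 higher in KO. In that fit 740 genes of the table had such a p, and the WT side was WT 2 with the shallow WT 3. Without KO 3 the count was 2 (Cyp51 and Insig1, both lower), where 341 genes had such a p. Of the 12292 genes, 12267 and 12258 were in these fits. DESeq2 and limma-voom also called 0 of the 36. The fitted values of the enzymes lay on 1 side, but they are not independent. Most of these genes share control by SREBP and all come from the same libraries, so 1 library can move many signs together. All 18 sterol synthesis enzymes had a negative log2 fold change (KO minus WT), with a median of -0.38 and a range from -0.80 to -0.12, where 48% of all tested genes were negative and the median was 0.01. The 5 SREBP control genes were negative too (median -0.24), 3 of the 4 fatty acid enzymes were negative (median -0.20), and 6 of the 9 transport and efflux genes were positive (median 0.11). The 95% interval held 0 for all 36 genes, and for 24 of them it reached a log2 fold change of -1, so a difference of that size is within the error.

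**Figure D1:**
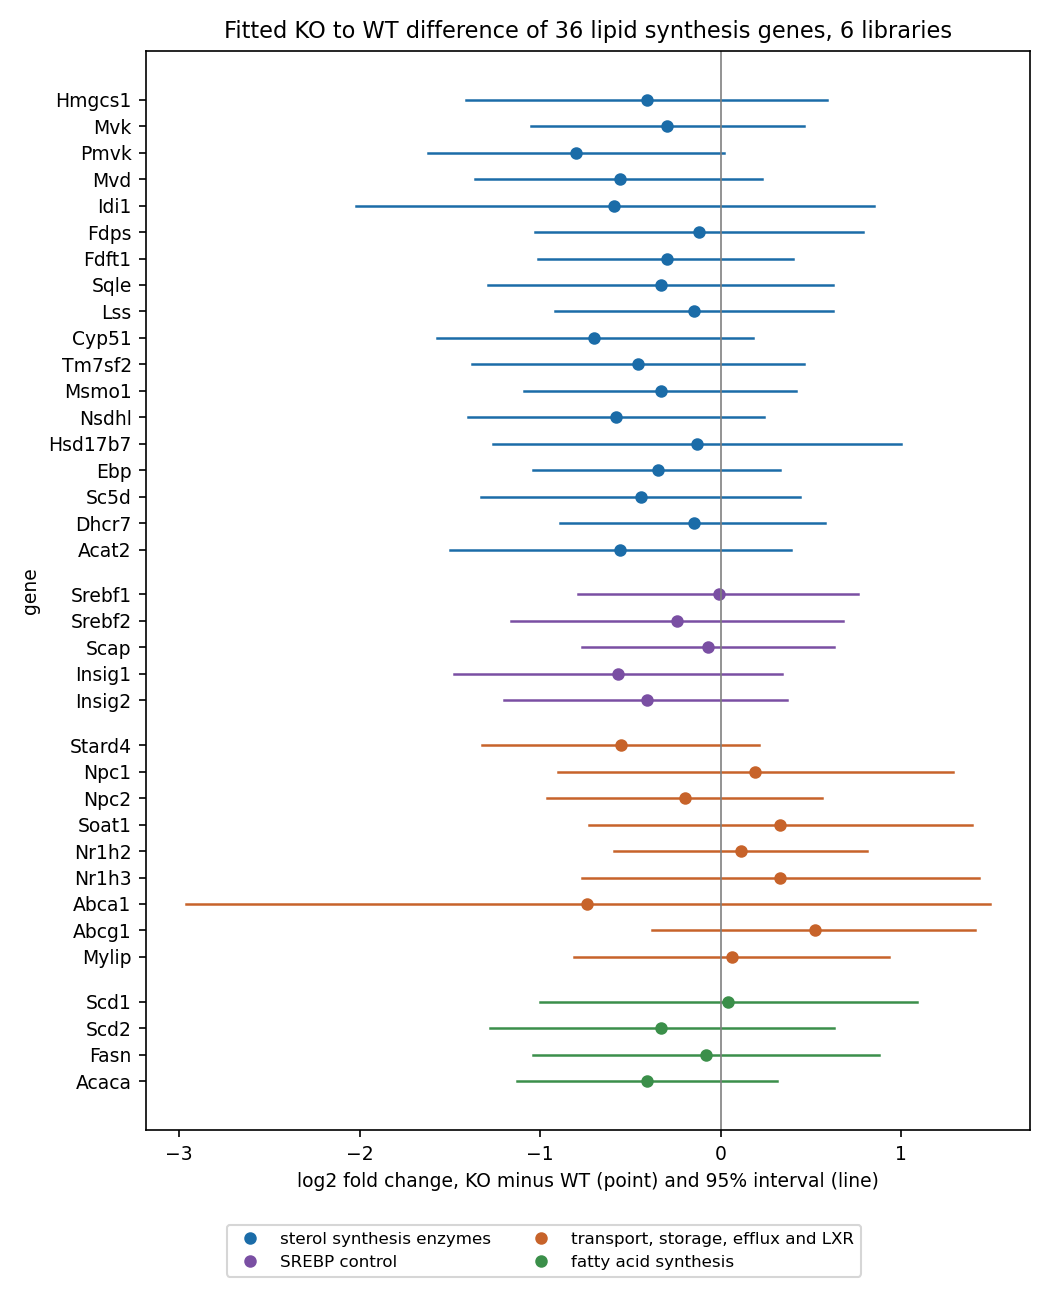
Log2 fold change of KO minus WT for each of the 36 genes (points) with its 95% interval (lines), from the edgeR fit of 6 libraries, coloured by role. The 18 enzyme points lie left of 0, between -0.80 and -0.12, and each of the 36 intervals crosses 0.

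In RNA from whole colonies, fewer cells of a type and less RNA per cell cannot be told apart. The values that moved with these genes are therefore given beside them. The deep libraries differed in their cell markers within each genotype. The summed level of 6 neutrophil granule genes was 9317 CPM in WT 2 and 7079 in KO 1, but 2181, 2127 and 1862 CPM in WT 1 and KO 2 and KO 3. The 7 macrophage genes summed to 1605 and 1873 CPM in WT 1 and KO 3 and to 960, 1162 and 1363 CPM in WT 2 and KO 1 and KO 2. The 8 mast cell and basophil genes reached 8990 CPM in KO 2, against 2869 to 5076 CPM in the other deep libraries, and 6 proliferation genes summed to 1426 CPM there, against 2107 to 2318. Lymphoid markers were close to absent, with 3 of 5 (Cd3e, Cd3g and Ms4a1) at 0 reads in all libraries. The 7 markers of stroma, fat and endothelium summed to 136 to 251 CPM in the deep libraries. Most of that was Pecam1 (120 to 235 CPM), which myeloid cells also express, with Col1a1 at 9.63 to 29.5 CPM, Pdgfrb at 2.35 to 5.38 CPM, Col1a2, Adipoq and Cdh5 each under 1 CPM, and Cxcl12 at 0 reads. The part of these differences in the results on lipid genes was not tested.

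The first enzymes of the pathway turn acetyl-CoA into mevalonate and then into isoprene units. Pmvk, which encodes phosphomevalonate kinase (chr3:89454541-89469013, plus strand, GRCm38), had the lowest p of the 36. It stood at 65.3 and 104 CPM in WT 1 and WT 2, with 5 reads in WT 3, and at 61.9, 37.3 and 58.1 CPM in KO 1, KO 2 and KO 3. All KO libraries were below both deep WT libraries, but WT 1 and KO 1 nearly touched. The log2 fold change was -0.80 (SE 0.37, 95% interval -1.62 to 0.02), with an unadjusted p = 0.0551 by edgeR.

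Hmgcs1, the HMG-CoA synthase of the cytosol (chr13:119690379-119708260, plus strand), stood at 382 and 211 CPM in the deep WT libraries and at 166, 125 and 283 CPM in KO 1, KO 2 and KO 3, with 3 reads in WT 3. The groups overlapped, because KO 3 lay above WT 2. Mvd, the decarboxylase that follows Pmvk, stood at 103 and 174 CPM in WT and at 113, 72.9 and 107 CPM in KO. Here WT 1 fell inside the KO range and WT 2 lay alone above it. Acat2, an acetyl-CoA acetyltransferase at the entry of the pathway, had the same shape, at 37.2 and 75.4 CPM in WT and at 53.6, 26.9 and 44.5 CPM in KO. Mvk, mevalonate kinase, went from 33.5 and 47.8 CPM to 36.3, 25.6 and 35.5, with a log2 fold change of -0.30 (SE 0.34).

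Fdps, which makes farnesyl diphosphate, followed another order: 44.7 and 97.7 CPM in WT and 92.5, 53.8 and 47.4 CPM in KO. Its high libraries, WT 2 and KO 1, were those with the highest neutrophil granule genes, and its log2 fold change was the nearest to 0 of the enzymes (-0.12, SE 0.41). Without WT 2 that value was 0.49. Idi1, isopentenyl diphosphate isomerase, was scarce, with 72, 28 and 0 reads in WT and 29, 5 and 69 reads in KO. Its level of 0.782 CPM per kb of exon, the median of the deep libraries, was the lowest of the enzymes, but Idi1 is 1 of several members with a near-identical copy. A processed pseudogene, Gm13502, matches 684 bases of an Idi1 transcript at 100% identity in GENCODE M21. Fdps has pseudogene copies at up to 98.9% identity over 1062 bases (Gm3571). It also matches 929 bases of Gm43738, annotated as protein coding, at 100% identity. Acat2 has the paralog Acat3 at 97.7% over 1477 bases. Acaca (with Gm5182), Fdft1 (with Gm6781) and Tm7sf2 (with its overlapping neighbour Vps51) also share stretches at 97.4% identity or more. Reads with more than 1 place in the genome, and reads that fall on overlapping genes, stand in rows of their own in the files and in no gene. The levels of these genes are therefore uncertain.

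The middle of the pathway joins farnesyl units to squalene and closes the sterol ring. Sqle, squalene epoxidase, a rate-limiting oxygenase, stood at 232 and 152 CPM in the deep WT libraries and at 115, 88 and 202 CPM in KO 1, KO 2 and KO 3. Fdft1, squalene synthase, differed less, at 91.1 and 89 CPM against 72.5, 57 and 89.3 CPM. Lss, lanosterol synthase, stood at 172 and 118 CPM in WT and at 98.3, 119 and 153 CPM in KO. In each of these 3 genes KO 3 sat inside the WT range, and the log2 fold changes were -0.33, -0.30 and -0.15.

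The last enzymes turn lanosterol into cholesterol. Cyp51, the lanosterol demethylase (chr5:4081145-4104746, minus strand), had the second lowest p of the enzymes. It stood at 323 and 207 CPM in WT 1 and WT 2, with 14 reads in WT 3, and at 148, 138 and 266 CPM in KO, so that KO 3 lay between the WT libraries. Its log2 fold change was -0.70 (SE 0.40, 95% interval -1.57 to 0.18), with an unadjusted p = 0.108 by edgeR. Msmo1, a sterol methyl oxidase, stood at 245 and 174 CPM against 138, 136 and 200 CPM. Sc5d, the desaturase near the end, stood at 128 and 84.3 CPM against 66.9, 48.2 and 100 CPM. The X-linked Nsdhl stood at 133 and 65 CPM against 61.5, 50.9 and 77.7 CPM. In all of these WT 1 was the highest library and KO 2 the lowest.

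Ebp and Dhcr7, the sterol isomerase and the reductase of the final step, were the other enzymes whose deep groups did not overlap. Ebp stood at 76.6 and 89.1 CPM in WT and at 66.2, 65.5 and 71.7 CPM in KO, a KO mean of 67.8 ± 3.40 (SD, n = 3). Dhcr7 stood at 81.1 and 82.1 CPM in WT and at 76.3, 55.5 and 75.3 CPM in KO. The gaps between the groups were small, and both log2 fold changes (-0.35, SE 0.31, and -0.15, SE 0.33) were within about 1 standard error of 0. Hsd17b7 (-0.13, SE 0.52) and Tm7sf2 (-0.46, SE 0.42), which encode sterol reductases, overlapped between the groups, at 48.7 to 108 CPM in WT against 35.6 to 101 in KO for Hsd17b7 and at 19.9 to 29.3 against 10.6 to 25.1 for Tm7sf2.

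Seen by library, the enzymes had a shared low point and 2 high points. KO 2, the library rich in mitochondrial reads, was the lowest deep library for 16 of the 18 enzymes, where it was the lowest for 27.2% of all tested genes. WT 1 was the highest for 10 enzymes and WT 2 for the other 8, and no KO library was the highest for any enzyme. Among all 12292 tested genes WT 1 was the highest for 2739 and WT 2 for 3064, and a KO library for the rest. The 6 proliferation genes had this shape too. KO 2 was the lowest for 5 of them, and WT 1 and WT 2 were the highest for 3 each. The summed level of the 18 enzymes was 2282 and 1850 CPM in WT 1 and WT 2, 57 reads in WT 3, and 1451, 1147 and 1934 CPM in KO 1, KO 2 and KO 3. The sum in KO 3 thus lay above that of WT 2, as did 10 of the 18 enzymes singly. The 57 reads correspond to 1703 CPM, with an exact Poisson interval of 1290 to 2206 CPM for counting error, which spans values of both genotypes. With KO 2 left out, 17 of 18 enzymes stayed negative and their median was -0.20 instead of -0.38. With WT 1 left out, 12 of 18 were negative and the median was -0.14, while the median of the same tested genes moved to 0.14.

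**Figure D2:**
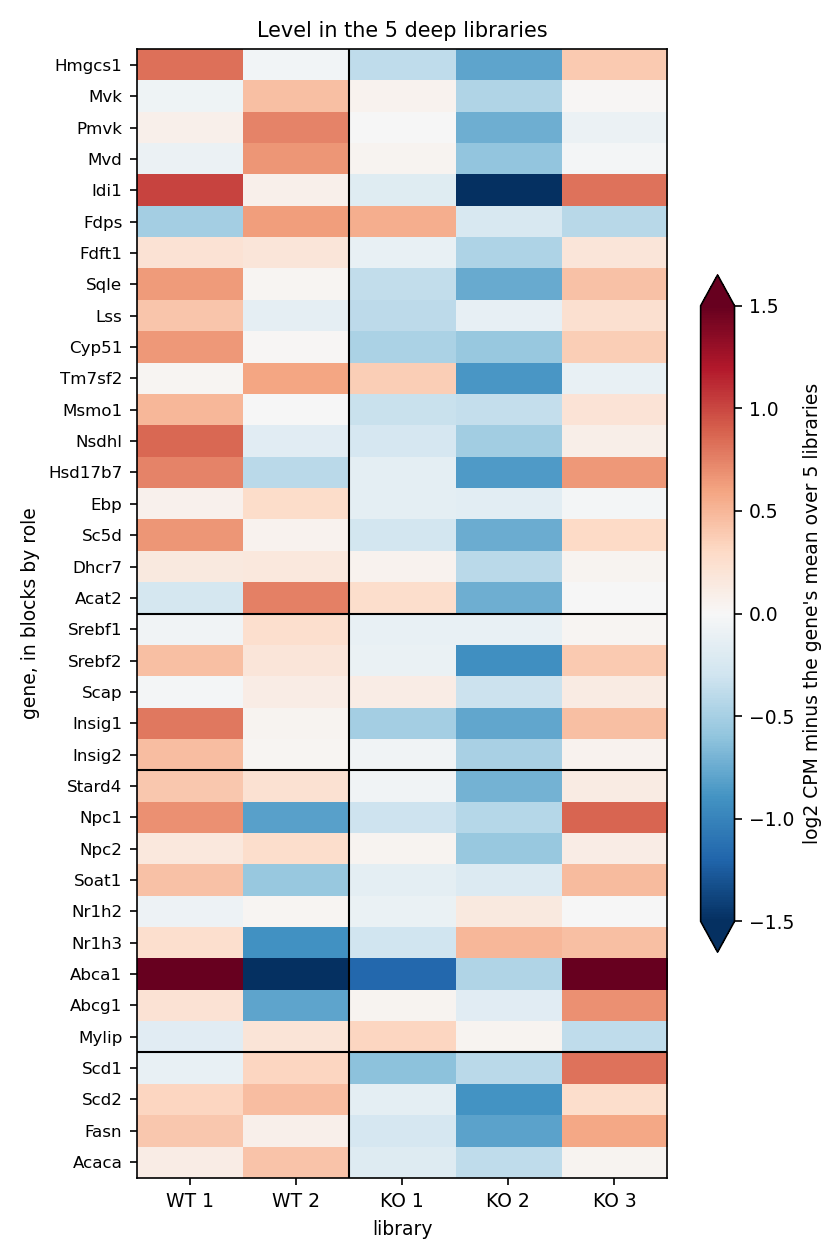
Level of each gene in the 5 deep libraries as log2 CPM minus the gene's mean over those libraries, in blocks by role from top to bottom, with WT left and KO right of the line. Most enzyme rows are bluest in KO 2, the lowest library for 16 of 18 enzymes, while Npc1, Soat1, Abca1 and Abcg1 are red in WT 1 and KO 3 and blue in WT 2.

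The order of the libraries was the same for many of these genes. In 8 of the 18 enzymes (Hmgcs1, Idi1, Fdft1, Sqle, Cyp51, Msmo1, Nsdhl and Sc5d) WT 1 was the highest, followed by KO 3, WT 2, KO 1 and KO 2. The control genes Srebf2, Insig1 and Insig2 had that order too, which makes 11 of the 36, or 30.6%, against 3.2% of all tested genes. It was 0 of 9 among the transport and efflux genes and 0 of 4 among the fatty acid enzymes. This order was picked out after the values were seen. In it KO 3 lies between the WT libraries and KO 1 and KO 2 lie lowest, so within each sex KO lies below WT. Of the other 10 enzymes Lss and Hsd17b7 were also highest in WT 1, while Pmvk, Mvk, Mvd, Fdps, Tm7sf2, Ebp, Dhcr7 and Acat2 were highest in WT 2.

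Promoter sequence was not used to choose the genes, but their known control by SREBP means that a shared motif is not an independent finding. RefSeq (GRCm38.p6) gave windows of 300 bases, 250 before to 50 after each listed start, for 28 of the 36 genes, and those without one here are Fdps, Fdft1, Sqle, Stard4, Npc1, Abcg1, Scd1 and Scd2. The motifs searched, on both strands, were CCAAT, the box bound by NF-Y, which works beside SREBP, and TCACNCCAC, a form of the sterol regulatory element. On the opposite strand they read ATTGG and GTGGNGTGA. They do not overlap each other in the sequences printed here. CCAAT was found at 1 or more listed starts of 14 of 15 sterol enzymes, Acat2 being the exception, and of 4 of 5 SREBP control genes. That is 22 of 28 members, or 78.6%, against 41.1% of 27025 genes, which were not limited to genes tested here. The sterol element was found in 1 of 28, Hmgcs1, against 1.44% of all genes, and no match says only that these letters are not in the window. The 250 bases before the start are shown for Hmgcs1 (chr13:119690101-119690350, plus strand), for Cyp51 (chr5:4104698-4104947, minus strand) and for Insig1 (chr5:28071162-28071411, plus strand), since these sterol-responsive genes stood in the same order across the deep libraries. Capitals mark the CCAAT box, read on either strand, and in Hmgcs1 the sterol element TCACCCCAC.
Hmgcs1: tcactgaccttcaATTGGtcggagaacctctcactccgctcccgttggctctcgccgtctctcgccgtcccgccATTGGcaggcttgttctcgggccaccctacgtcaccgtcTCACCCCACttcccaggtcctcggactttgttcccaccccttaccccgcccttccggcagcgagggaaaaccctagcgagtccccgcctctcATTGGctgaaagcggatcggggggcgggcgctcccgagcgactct
Cyp51: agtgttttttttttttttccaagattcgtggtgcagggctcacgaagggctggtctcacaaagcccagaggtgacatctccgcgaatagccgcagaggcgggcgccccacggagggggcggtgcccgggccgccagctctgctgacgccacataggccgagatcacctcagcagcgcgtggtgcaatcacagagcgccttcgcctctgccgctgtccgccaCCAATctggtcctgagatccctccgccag
Insig1: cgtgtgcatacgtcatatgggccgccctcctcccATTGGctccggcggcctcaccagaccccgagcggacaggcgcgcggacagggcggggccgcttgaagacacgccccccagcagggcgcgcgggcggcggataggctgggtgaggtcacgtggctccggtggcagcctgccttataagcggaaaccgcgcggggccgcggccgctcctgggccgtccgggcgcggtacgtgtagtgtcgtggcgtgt

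Hmgcs1 carries 3 such boxes in this stretch around the sterol element, which begins 137 bases before the start, while Cyp51 and Insig1 carry 1 each, 29 and 216 bases before theirs. A match describes the letters and is not a site that was measured here.

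**Figure D3:**
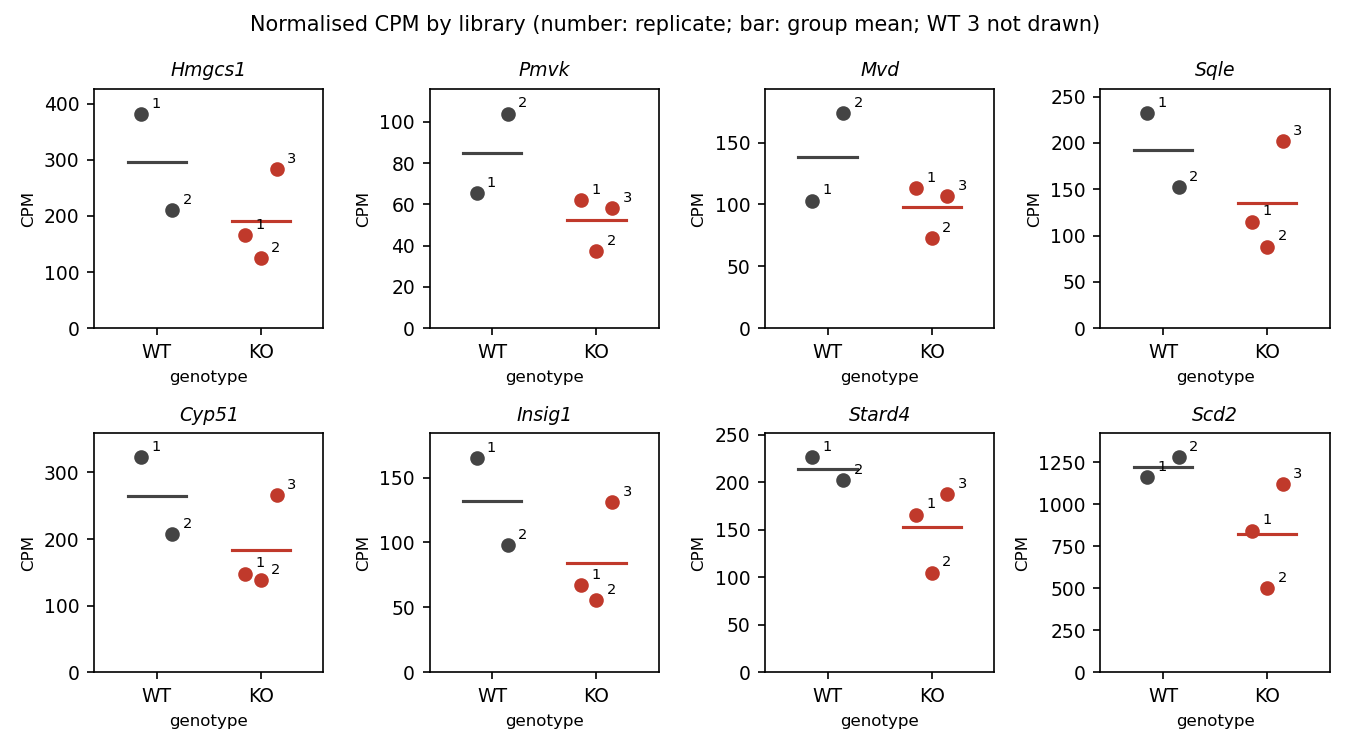
Normalised CPM of 8 genes in the 5 deep libraries by genotype, with the replicate number beside each point and a bar at the group mean, each axis starting at 0. KO 2 is the lowest point in every panel, and in Hmgcs1, Sqle, Cyp51 and Insig1 KO 3 lies above WT 2.

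In the control circuit the Insig genes had the largest fitted differences and Srebf1 and Scap the smallest. Insig1, which retains SCAP and is itself a strong SREBP target (chr5:28071363-28078662, plus strand), stood at 165 and 98.2 CPM in WT 1 and WT 2, with 3 reads in WT 3, and at 66.9, 55.8 and 131 CPM in KO 1, KO 2 and KO 3. Its order of libraries was that of Hmgcs1, Sqle and Cyp51, and its log2 fold change was -0.57 (SE 0.42). Insig2, which serves the same role under other control, stood at 30.9 and 22.9 CPM against 21.6, 16 and 23.3 CPM (-0.41, SE 0.36).

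Srebf2, the SREBP that drives sterol genes, stood at 437 and 361 CPM in WT and at 298, 168 and 418 CPM in KO. Without KO 2, its log2 fold change of -0.24 (SE 0.42) became 0.05. Srebf1, the SREBP tied more to fatty acid synthesis, was even across libraries, at 150 and 185 CPM against 144, 144 and 159 CPM, and its log2 fold change of -0.01 (SE 0.35) turned to 0.02 with DESeq2 size factors. Scap was at 51.5 and 56.8 CPM against 56.9, 42.1 and 57 CPM. The intervals of the 3 genes (-1.16 to 0.68, -0.79 to 0.76 and -0.77 to 0.63) hold differences in either direction and do not show equal levels. As a group the 5 control genes summed to 834 and 724 CPM in WT 1 and WT 2 and to 588, 426 and 789 CPM in KO. Their 14 reads in WT 3 correspond to 418 CPM, with an exact Poisson interval of 229 to 702 CPM. That interval lies below the other WT libraries and below KO 3, and holds the values of KO 1 and KO 2. Without KO 2 the median of the 5 was 0.02.

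The 9 genes of transport, storage and efflux did not share 1 pattern. Stard4, a sterol carrier of the cytosol and an SREBP target, and Npc2, the sterol-binding protein of the lysosome lumen, were lower in all KO libraries than in both deep WT libraries. Stard4 stood at 227 and 202 CPM in WT, with 9 reads in WT 3, and at 166, 105 and 188 CPM in KO, with a log2 fold change of -0.55 (SE 0.35). Npc2, with 89.6 CPM per kb the second most abundant of the 36 per length, stood at 504 and 542 CPM in WT and at 466, 305 and 487 CPM in KO (-0.20, SE 0.35).

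Npc1, Soat1, Abcg1 and Abca1 split the libraries in another way. Npc1, the membrane protein that moves cholesterol out of lysosomes, stood at 346 CPM in WT 1 and 122 in WT 2, and at 174, 160 and 394 CPM in KO 1, KO 2 and KO 3. Soat1, which esterifies cholesterol for storage, stood at 471 and 234 CPM in WT and at 312, 301 and 481 CPM in KO. In both genes WT 1 and KO 3 were high and WT 2 was the lowest, so the spread within a genotype was larger than the difference between genotypes: the KO mean was 104% of the deep WT mean in both genes.

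Abcg1, an LXR target that exports sterol to HDL, stood at 148 and 73.5 CPM in WT and at 131, 113 and 204 CPM in KO, and had the largest positive log2 fold change of the 36 (0.52, SE 0.41). Abca1, the LXR target that loads sterol onto apolipoprotein A-I, varied the most of the 36, by 17.8 times among deep libraries. It held 553 and 23 reads in WT 1 and WT 2 and 51, 42 and 387 reads in KO, or 40.1, 2.25, 4.01, 6.64 and 25.5 CPM, and 0 reads in WT 3. WT 1 alone set the sign of its log2 fold change of -0.74 (SE 0.99), which was 2.51 without that library.

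Some macrophage markers had the same libraries at the top and at the bottom. Csf1r, the receptor of macrophage colony-stimulating factor, stood at 485 and 133 CPM in WT 1 and WT 2 and at 158, 169 and 442 CPM in KO. Adgre1, which encodes F4/80, stood at 366 and 109 CPM against 175, 170 and 416, and Gpnmb, a gene of lipid-loaded macrophages, at 3516 and 1287 CPM against 2430, 2265 and 4348. These 3 markers were lowest in WT 2 and highest in WT 1 or KO 3, as were the 4 sterol genes, and they were picked out after their values were seen. The whole list of 7 macrophage genes did not share that split, and none was at 0 in a deep library. The complement gene C1qa stood at 2.25 and 9.60 CPM in WT and at 0.944, 1.74 and 0.792 CPM in KO, and C1qb was highest in WT 2 as well. Cd68 was lowest in WT 2 (230 CPM, against 314 to 564 CPM elsewhere), and Mrc1 stood at 261 and 393 CPM in WT and at 473, 478 and 423 CPM in KO. The 5 genes of lipid-loaded macrophages had no single order either. Their sum was 3916 and 1597 CPM in WT 1 and WT 2 and 2923, 2858 and 4743 CPM in KO, with Gpnmb the largest share. Trem2 was lowest in WT 2 and highest in KO 2, Msr1 was lowest in WT 2 and highest in KO 1, and Cd36 and Fabp4 were lowest in KO 3 and highest in KO 2. The fitted difference was above 0 for all 5 (median 0.54 on the log2 scale), and edgeR called none of them. High values in WT 1 and KO 3 were not confined to macrophage genes. The 3 eosinophil genes summed to 1473 and 459 CPM in WT 1 and WT 2 and to 302, 784 and 1480 CPM in KO, though Siglecf alone did not share the split. Kit, of the mast cell list, stood at 246 and 109 CPM against 112, 102 and 251, and the rest of that list did not share it. The part of macrophages or other cell types in the values of the sterol efflux genes was not tested. Leaving out WT 1 moved the median of the 9 transport and efflux genes from 0.11 to 0.92, with Npc1 at 1.06, Soat1 at 1.04 and Abcg1 at 1.12, all with adjusted p of 0.798 or more by edgeR. Leaving out WT 2 moved the median to -0.06.

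**Figure D4:**
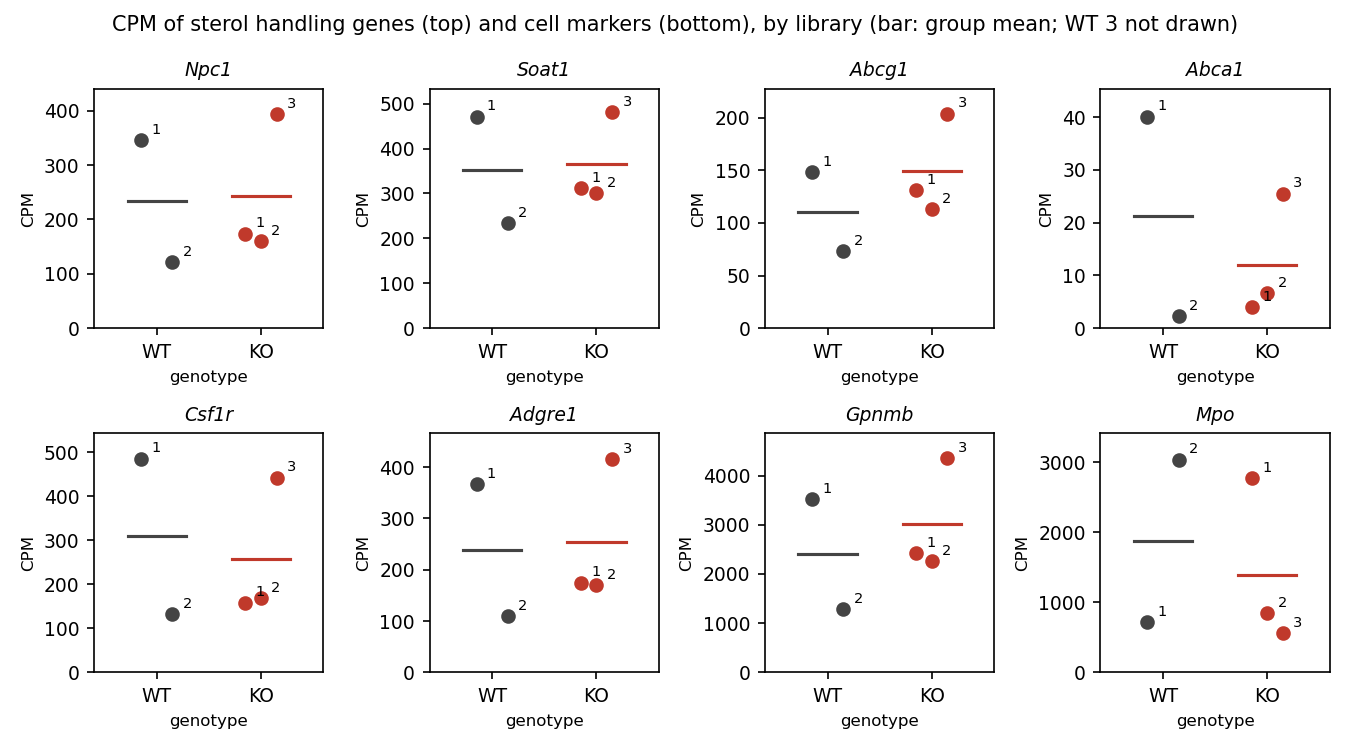
CPM of 4 sterol handling genes (top) and 4 cell markers (bottom) in the 5 deep libraries by genotype, with the replicate number beside each point and a bar at the group mean. Npc1, Soat1, Abcg1, Abca1, Csf1r, Adgre1 and Gpnmb are each lowest in WT 2 and highest in WT 1 or KO 3, while Mpo, a neutrophil granule gene, is highest in WT 2 and KO 1.

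Of the LXR receptors and Mylip, Nr1h2 and Mylip varied little among the deep libraries, by 1.19 and 1.63 times, and Nr1h3 by 2.66 times. Nr1h2, which encodes LXR beta and is present in most cell types, was the most even of the 36, at 96.5 and 104 CPM in WT and 95.2, 113 and 101 CPM in KO. Nr1h3, which encodes LXR alpha, the form of macrophages and liver, stood at 21 and 9.4 CPM in WT and at 14.4, 25 and 24.1 CPM in KO (0.33, SE 0.50), and without WT 2 its log2 fold change was -0.17. Mylip, an LXR-induced ubiquitin ligase that limits lipoprotein uptake, stood at 22.1 and 28.3 CPM against 30.9, 25.5 and 19 CPM (0.06, SE 0.40).

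In fatty acid synthesis, Scd2 dominated. Scd2, a stearoyl-CoA desaturase (chr19:44293674-44306864, plus strand), was the most abundant of the 36 per length, at 205 CPM per kb, the median of the deep libraries. It stood at 1160 and 1279 CPM in WT 1 and WT 2, with 19 reads in WT 3, and at 843, 501 and 1119 CPM in KO. All KO libraries were below both deep WT libraries, KO 3 by a small margin, and the log2 fold change was -0.33 (SE 0.43). The 19 reads of WT 3, few as they are, correspond to 568 CPM, below KO 1 and KO 3 and above KO 2. Acaca, the acetyl-CoA carboxylase that commits carbon to fatty acids, also did not overlap, at 39.6 and 49.4 CPM against 32.2, 28.3 and 37.9 CPM (-0.41, SE 0.33). Fasn, the fatty acid synthase, stood at 475 and 378 CPM against 301, 207 and 539 CPM (-0.08, SE 0.44), with its highest library in KO. The 4 genes summed to 1705 and 1748 CPM in WT 1 and WT 2 and to 1198, 761 and 1754 CPM in KO. The 26 reads of WT 3 correspond to 777 CPM (exact Poisson interval 507 to 1138 CPM). That interval lies below the other WT libraries and below KO 1 and KO 3, and holds the value of KO 2. Without KO 2 the median log2 fold change of the 4 was 0.07.

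Scd1, the neighbour of Scd2, stood at 31.1 and 41.8 CPM in WT and at 22, 25.3 and 58.9 CPM in KO (0.04, SE 0.48). Per kb of exon Scd2 exceeded Scd1 by 33.4 and 27.4 times in WT 1 and WT 2 and by 34.3, 17.7 and 17 times in KO 1, KO 2 and KO 3. These 2 genes share 623 bases at 95.5% identity in their transcripts, so a few reads may be lost from each. In the other pairs, also per kb, Insig1 exceeded Insig2 by 3.48 to 6.34 times and Nr1h2 exceeded Nr1h3 by 3.14 to 8.32 times in the deep libraries. Srebf2 exceeded Srebf1 by 1.53 to 2.29 times in WT 1 and WT 2 and KO 1 and KO 3, but by 0.914 times in KO 2, where Srebf1 was the higher.

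In all, the deep groups did not overlap for 7 of the 36 genes, all with KO below WT: Pmvk, Ebp, Dhcr7, Stard4, Npc2, Scd2 and Acaca. Among all tested genes 3.87% had every KO below every WT library and 4.79% every KO above, a direction that 0 of the 36 showed. KO 2 was the lowest library in each of the 7. Leaving it out could not make these 7 overlap, and no other member joined them. Without it Scap alone had every KO above WT, where the share of all genes was 6.83% in each direction. None of the 7 passed the test, and the smallest unadjusted p among them was that of Pmvk.

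Each genotype held 1 female and 2 male libraries, but the deep libraries held 1 male in WT and 2 in KO. The genotypes were therefore also set side by side within sex, with 1 or 2 libraries on each side and no test. In the female pair, KO 1 was below WT 2 for 17 of 18 sterol enzymes (49.6% of all tested genes), with a median log2 ratio of -0.34. Among males, KO 3 was below WT 1 for 14 of 18 (51.2% of all genes), with a median of -0.15, and KO 2 was below it for 17 of 18 (50.1%), with a median of -0.83. The KO library was lower in each of these 3 pairings for 13 of the 18 enzymes and 20 of the 36 genes, against 13.4% of all genes. These are not counts of independent genes, and both male pairings share WT 1. With the sex-linked class as a term in edgeR, 17 of 18 enzymes were negative, their median was -0.38 and 0 of the 36 were called. For the transport and efflux genes the female pair pointed up (median 0.42), the male pair with KO 3 was near 0 (0.03) and that with KO 2 pointed down (-0.64).

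As a pooled list, other genes of the pathway outside the 36 lay closer to the background than the members. Of 46 such genes all were tested, 0 were called by edgeR in either direction, and 27 were negative and 19 positive. The median log2 fold change was -0.07. Every KO library was below both deep WT libraries for 5 of them (10.9%, against 3.87% of all genes). The KO library was lower in each sex-matched pairing for 15 (32.6%, against 13.4%). Most of the 16 genes of fatty acid supply and elongation were negative, with values from -0.59 for Fads2 to 0.42 for Acacb. Rxra, which encodes a partner of the LXR receptors, had the lowest p of the 46 and the only unadjusted edgeR p under 0.05 among them (0.0286, adjusted p = 1 by edgeR). Rxra stood at 51.5 and 37.5 CPM in WT and at 72.1, 75.1 and 98.8 CPM in KO, so that every KO library was above both deep WT libraries, with a log2 fold change of 0.85 (SE 0.34). On the lower side Acss2, which makes acetyl-CoA from acetate, stood at 44.2 and 41.6 CPM against 29.8, 39.1 and 30.6 CPM (-0.41, SE 0.33). Lbr, the lamin B receptor, which also acts as a sterol reductase beside Tm7sf2, stood at 345 and 394 CPM against 332, 197 and 290 CPM (-0.37, SE 0.34). The citrate carrier gene Slc25a1 (-0.39, SE 0.36), the sterol hydroxylase gene Cyp27a1 (0.71, SE 0.73) and the sterol transporter gene Gramd1a (0.36, SE 0.38) overlapped between the groups.

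The direction of the enzymes was kept under other scaling and tests, while its size moved with the libraries. Of 19 alternatives, 11 had all 18 enzymes negative, 7 had 17 negative, and 1, without WT 1, had 12. The median ran from -0.58 without KO 3 to -0.14 without WT 1. None of the 36 genes was called in any of the 19 alternatives, where the lowest adjusted p was 0.773, for Pmvk without WT 1.

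**Figure D5:**
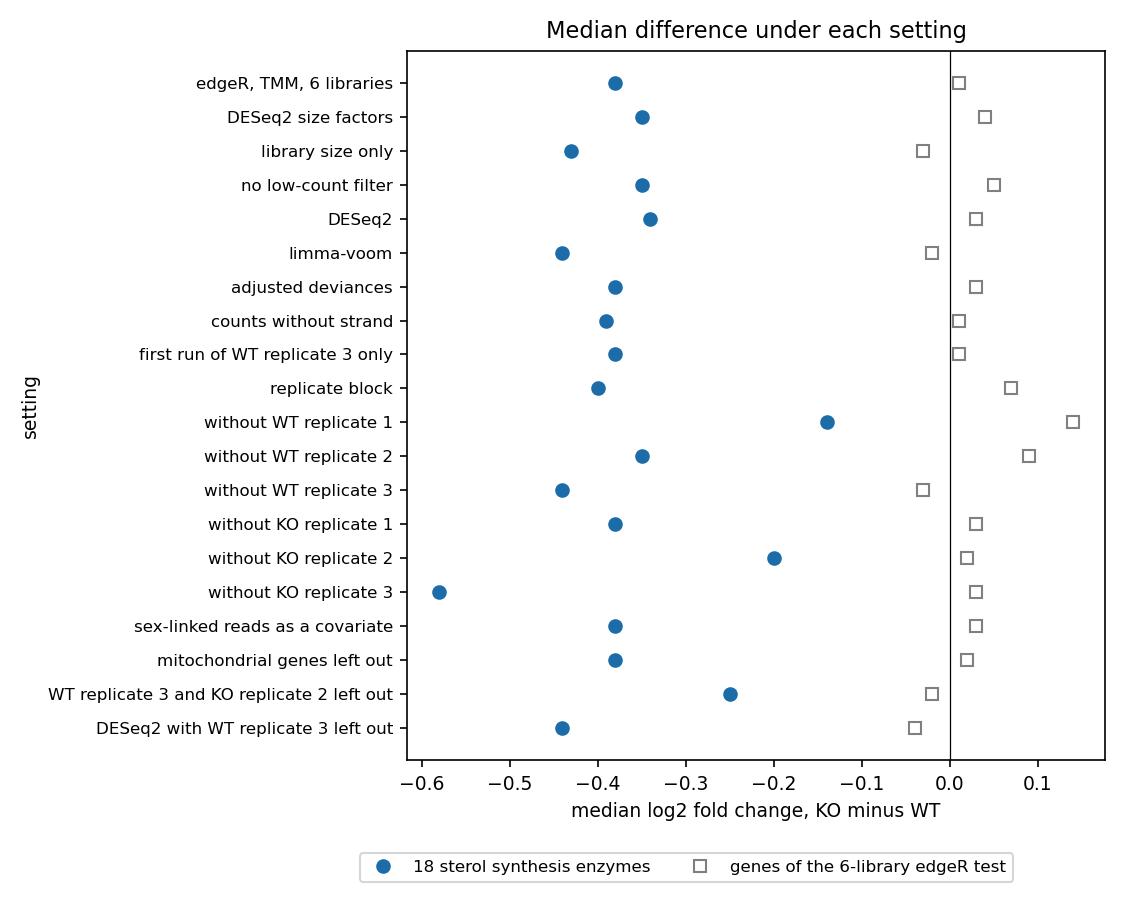
Median log2 fold change of the 18 sterol enzymes (filled points) and of the genes of the 6-library edgeR test (open squares) under each setting. The enzyme median stays negative, from -0.58 to -0.14, and the squares lie between -0.04 and 0.14.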

How the data were processed

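Reads per gene of 6 samples were analysed as deposited, 1 file per sequencing run and 2 runs for WT 3, which were summed. The deposited counts are whole and not normalised, and the columns are those that STAR writes. Per the submitters' processing notes the tools were STAR 2.5.1b, the build GRCm38 and DESeq2; the role of DESeq2 is not stated. Which annotation release was used is not stated in these sources. Column 4 (reads on the opposite strand) was taken, since the kit is stranded per the labels, and it held 95.6% to 97.5% of stranded gene reads. The 4 rows that name no gene were left out and held 25.6% to 47.8% of reads per library. Of 46983 genes, 46488 matched GENCODE M21 by identifier for symbols, coordinates and exon length.

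The genotypes were compared with edgeR 4.0.16 (filterByExpr, TMM, robust glmQLFit, glmQLFTest, two-sided, Benjamini-Hochberg). Standard errors are the log2 fold change over the root of F. DESeq2 1.42.0 and limma 3.58.1 were alternatives, beside other scaling and filters, counts without strand, WT 3 from its first run alone, a replicate block and each library left out. The sex-linked term, mitochondrial genes left out, WT 3 and KO 2 left out together, and DESeq2 without WT 3 were added after seeing the data. Near-identical transcripts were sought with blastn 2.17.0 (at least 95% identity over 300 bases). The members and lists were chosen with earlier results of these data known. All members are named, and of the other 46 pathway genes the 3 of lowest p per direction and the extremes of the fatty acid list. Markers and libraries named beside them were picked after their values were seen.

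The sample titles number the replicates but state no pairing. Deviations from the group means of libraries with the same number had correlations of -0.29, -0.03 and -0.15. They cannot show whether the samples were paired, because the WT mean includes the shallow WT library, whose counting error enters every WT deviation.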

Additional observations from a re-analysis of the deposited data

How the results depend on the processing

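Called genes, 0 by edgeR over all genes (178 at an unadjusted p under 0.05), were 2 with library size only, 9 without a low-count filter, 1 with DESeq2, 13 with the replicate block, 4 with the sex-linked term, 12 with DESeq2 without WT 3, and 0 to 5 when 1 library was left out; none was one of the 36 genes. With the replicate block the enzyme median was -0.40, and no call on the 36 genes changed. The signs near 0 were not stable. Fdps was 0.03 with the block and 0.04 with the sex-linked term. Srebf1 was 0.02 with DESeq2 size factors, without a filter and with adjusted deviances, 0.03 with DESeq2, 0.09 with the block and 0.01 with the sex-linked term. Scd1 was -0.09 with limma-voom, -0.29 with the block, -0.06 with the sex-linked term and -0.04 with DESeq2 without WT 3. Mylip was -0.01 with limma-voom and -0.02 with DESeq2 without WT 3. With WT 3 and KO 2 both left out, Mylip was -0.02, Hsd17b7 0.02, Nr1h2 -0.04, Scap 0.07, Cyp27a1 -0.20 and the median of the transport genes -0.02.

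With 1 library left out the log2 fold changes ran from -0.79 to 0.16 for Hmgcs1, -1.28 to 0.02 for Idi1, -0.47 to 0.49 for Fdps, -0.73 to 0.10 for Sqle, -0.31 to 0.20 for Lss, -0.87 to 0.03 for Nsdhl, -0.58 to 0.63 for Hsd17b7, -0.17 to 0.24 for Srebf1, -0.56 to 0.05 for Srebf2 and -0.14 to 0.06 for Scap. They ran from -0.33 to 1.06 for Npc1, -0.17 to 0.92 for Nr1h3, -1.93 to 2.51 for Abca1, -0.11 to 0.29 for Mylip, -0.51 to 0.33 for Scd1, -0.51 to 0.23 for Fasn, -0.68 to 0.06 for Slc25a1 and -0.18 to 1.53 for Cyp27a1. The medians ran from -0.50 to 0.02 for SREBP control, -0.06 to 0.92 for transport and -0.51 to 0.07 for fatty acid synthesis. The cause was not tested. WT 3 held 10 or more reads for only 3 of the 36 genes and 0 reads for 5, so the WT side rests on 2 deep libraries.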
